A study of Mus with 8 samples.

Results

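Transcripts of 6 sarcomeric myosin heavy chain genes (Myh1, Myh2, Myh3, Myh4, Myh7 and Myh8) and of the 4 myogenic transcription factor genes (Myod1, Myog, Myf5 and Myf6) were measured in 8 subcutaneous tumours. These 10 genes, of 22911 named on the array, were identified by the RefSeq accession of their probes, which gave 14 probes, with a second probe for Myh2, Myh3, Myh4 and Myh8. The tumours grew from Pan02 cells, a mouse pancreatic cancer line, transplanted under the skin of B6 hosts and removed whole after 36 to 40 days. Mutant hosts (Ext1 flox/flox; S100a4-Cre; n = 4) carried loxP-flanked alleles of Ext1, whose product elongates heparan sulfate chains, together with a Cre recombinase driven by S100a4, a gene active in fibroblasts and some other stromal cells. Control hosts (n = 4) were wild type, and the transplanted cells were the same in both groups and kept their own Ext1. The age and sex of the hosts are not given in the sources used here. Each tumour was hybridised to 1 array in 1 colour. A level is the log2 signal minus the log2 of the array's 75th percentile, so that a gene at 0 is as bright as that percentile. A difference is Mutant minus Control on that scale, and levels of different probes are not compared with one another.

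Skeletal muscle builds its thick filaments from myosin heavy chains, and which gene supplies them marks the type and age of a fibre. Adult fast fibres use Myh4 (type IIB), Myh1 (type IIX) or Myh2 (type IIA), and slow fibres use Myh7, which also serves the heart ventricle. Myh3, the embryonic chain, and Myh8, the perinatal chain, are used before and around birth and return for a time in fibres that regenerate after injury. Myf5 and Myod1 are basic helix-loop-helix factors that commit and maintain myoblasts, myogenin (Myog) drives their differentiation and fusion, and Myf6, also called MRF4, is the most abundant of the family in adult fibres. A thin sheet of skeletal muscle, the panniculus carnosus, lies beneath mouse skin, where these tumours were grown.

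The Ext1 probe averaged 3.15 ± 0.22 in Mutant tumours and 3.07 ± 0.76 in Control tumours (SD, n = 4 each). The cancer cells carry intact Ext1 and it is not known here whether the probe lies in the deleted part, so this value checks neither the deletion nor the labels. The share of the 56605 probes read well above background was 61.5% to 67.2% by array, with 0 saturated spots. The labelled cancer cell type was borne out in part: Krt8 and Krt18, keratins of simple epithelia, averaged 6.06 and 7.03 in Mutant tumours and 6.59 and 7.50 in Control tumours, while Epcam stayed near background in all 8 tumours.

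All 3 adult fast myosins were higher on average in Mutant tumours, and in each of them Mutant 3 lay within the Control range. Myh4, the chain of the fastest fibres, read 3.21, 4.27, -0.68 and 2.75 in Mutant 1 to 4, against 0.71, -0.05, -4.43 and -2.67 in Control 1 to 4. Mutant 1, 2 and 4 thus exceeded all 4 Control tumours, whereas Mutant 3 was below Control 1 and Control 2. The mean was 2.39 ± 2.14 in Mutant and -1.61 ± 2.37 in Control tumours (SD, n = 4 each). Their difference was 3.99 (standard error 1.41, 95% interval 0.74 to 7.25), or 15.9-fold. Adjusted over the 16068 genes tested, limma gave p = 1, and a two-sided exact permutation test, which can go no lower than 0.0286 with its 70 arrangements, gave p = 0.0857. In whole tumours, fewer muscle cells and less muscle RNA per cell cannot be told apart.

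Myh1 read 1.86, 2.39, 0.15 and 1.72 in Mutant 1 to 4, against -0.56, 0.88, -2.50 and -8.24 in Control 1 to 4. Its signal in Control 4 was not well above background, and Control 2 was the only Control tumour above any Mutant tumour, namely Mutant 3. The difference of 4.14 (standard error 1.81, 17.6-fold) was wider than that of Myh4 only while the dim Control 4 signal counted at its value. Without Control 4 it was 2.26, against 3.64 for Myh4, and with dim signals raised to the lowest signal well above background it was 3.55, against 3.99 for Myh4. Myh2 read 0.79, 2.46, -1.75 and 0.50 in Mutant 1 to 4, against -2.04, -0.0034, -1.83 and -5.62 in Control 1 to 4. Here too Control 2 alone exceeded a Mutant tumour, and the difference of 2.88 (standard error 1.28) was 1.79 without Control 4. Two-sided exact permutation p was 0.0571 for Myh1 and for Myh2, and the limma adjusted p was 1 for each.

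**Figure D1:**
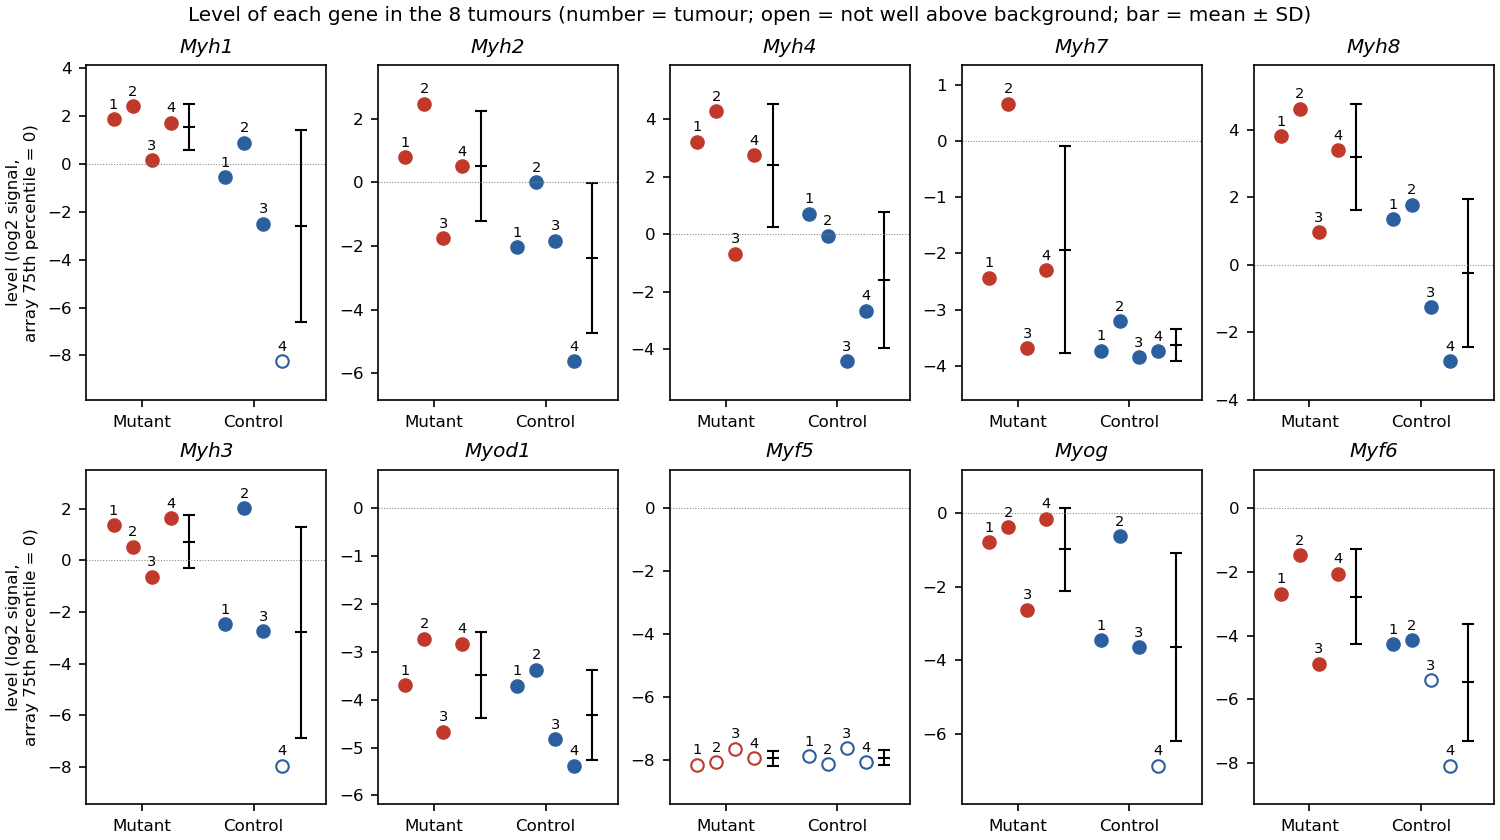
Each panel plots the level of 1 gene (log2 signal, array 75th percentile at 0, probe of highest mean) in Mutant tumours on the left and Control tumours on the right; the number beside a point is the tumour, open points were not well above background, and bars give the mean ± SD of 4 tumours. For all genes but Myf5, the Mutant mean is the higher one, Mutant 3 is the lowest Mutant tumour and the groups overlap.

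Slow myosin was carried mainly by 1 tumour. Myh7 read -2.43, 0.66, -3.68 and -2.30 in Mutant 1 to 4, against -3.73, -3.21, -3.85 and -3.74 in Control 1 to 4. The Control tumours lay close together, at -3.63 ± 0.29 (SD, n = 4), and Mutant 3 lay among them. The difference of 1.69 (standard error 0.82, limma adjusted p = 1, two-sided exact permutation p = 0.0571) was 0.83 without Mutant 2. Myh7b, a related slow chain, was well above background in Mutant 2 and in no other tumour, at -3.59. The atrial chain Myh6 was well above background on 1 Mutant and 1 Control array.

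The 2 developmental chains ordered the tumours differently. On its brighter probe, Myh8 was well above background in all 8 tumours and Myh3 in all but Control 4. The second probe of each chain stayed near background in all 8 tumours. Perinatal Myh8 read 3.80, 4.62, 0.97 and 3.39 in Mutant 1 to 4, against 1.34, 1.77, -1.26 and -2.86 in Control 1 to 4. As with Myh4, Mutant 1, 2 and 4 exceeded all Control tumours, and Mutant 3 stood between Control 1 and Control 3. The means were 3.19 ± 1.57 in Mutant and -0.25 ± 2.20 in Control tumours (SD, n = 4 each). They differed by 3.45 with a 95% interval of 0.70 to 6.19 (limma adjusted p = 1, two-sided exact permutation p = 0.0857).

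Embryonic Myh3 read 1.37, 0.52, -0.63 and 1.62 in Mutant 1 to 4, against -2.48, 2.02, -2.75 and -7.96 in Control 1 to 4. A Control tumour, Control 2, held the highest Myh3 level of all 8, while the other Control tumours lay below every Mutant tumour and Control 4 was not well above background. The difference of 3.51 had a standard error of 1.85 and a 95% interval of -0.77 to 7.79, which includes 0 (limma adjusted p = 1, two-sided exact permutation p = 0.143). It was 5.12 without Control 2 and 1.79 without Control 4. Whether the difference of Myh3 departs from that of Myh4 was not tested.

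Of the myogenic factors, Myod1, Myog and Myf6 had higher means in Mutant tumours and Myf5 was not measurable. Myf5, which marks committed precursors, stayed near background in all 8 tumours, with levels of -8.16 to -7.65 in Mutant and -8.14 to -7.63 in Control tumours, so that no fold can be given. Myod1, the factor that can convert other cells to muscle, was detected in every tumour and read -3.70, -2.73, -4.67 and -2.83 in Mutant 1 to 4, against -3.71, -3.38, -4.82 and -5.38 in Control 1 to 4. Its levels were closely interleaved: the difference was 0.84 with a 95% interval of -0.50 to 2.17 (limma adjusted p = 1, two-sided exact permutation p = 0.229), and 0.49 without Control 4.

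Myog, the differentiation factor, read -0.78, -0.38, -2.62 and -0.14 in Mutant 1 to 4, against -3.45, -0.62, -3.64 and -6.86 in Control 1 to 4. Control 2 stood among the high Mutant tumours, the other Control tumours lay below all Mutant tumours, and Control 4 was not well above background. The difference was 2.66 with a standard error of 1.23 (6.33-fold, limma adjusted p = 1, two-sided exact permutation p = 0.0857), or 1.59 without Control 4. Myf6, the factor of mature fibres, read -2.69, -1.47, -4.88 and -2.06 in Mutant 1 to 4, against -4.26, -4.15, -5.40 and -8.08 in Control 1 to 4. In contrast to Myog, Control 2 was below Mutant 1, 2 and 4 in Myf6, and Control 3 and 4 were not well above background. The Myf6 difference was 2.70 with a standard error of 1.04 (limma adjusted p = 1, two-sided exact permutation p = 0.0857), a value that rests in part on those dim signals.

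Taking the 9 genes that passed the filter on dim probes, all 9 had a higher mean in Mutant tumours, where 52.4% of all genes tested lay above 0. Their median difference was 2.88, against 0.01 over all genes tested. The difference reached 2-fold in 8 of 9 genes and 4-fold in 7 of 9, against 2.23% and 0.61% of all genes. An unadjusted p under 0.05 was reached by 3 of 9 (Myh4, Myh8 and Myf6), against 1.87% of all genes in that direction and 2.91% (467 genes) in either. By limma's adjusted p under 0.05, 0 of the 9 and 0 of 16068 genes (0%) passed. In 0 of the 9 were the groups free of overlap, against 0.716% of all genes with every Mutant tumour higher. Myh1, Myh3, Myog and Myf6 were not well above background in every Control tumour, while the filter could be met through the Mutant tumours alone, so these counts are a description and not a test. The spread between tumours of a group was wide: the median residual SD was 1.97 for these genes and 0.27 over all genes.

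The direction held in both rows of the slide, each of which carried 2 Mutant and 2 Control tumours. Myh4 differed by 3.41 in the first row and 4.58 in the second, and Myh8 by 2.65 and 4.24. Rows disagreed most for Myh3, which differed by 1.18 in the first row, where Control 2 lay, and by 5.85 in the second, where Control 4 lay. Raising dim signals to the lowest signal that counted as well above background on the same array gave 3.55 for Myh1, 3.00 for Myh3, 2.42 for Myog and 2.15 for Myf6.

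**Figure D2:**
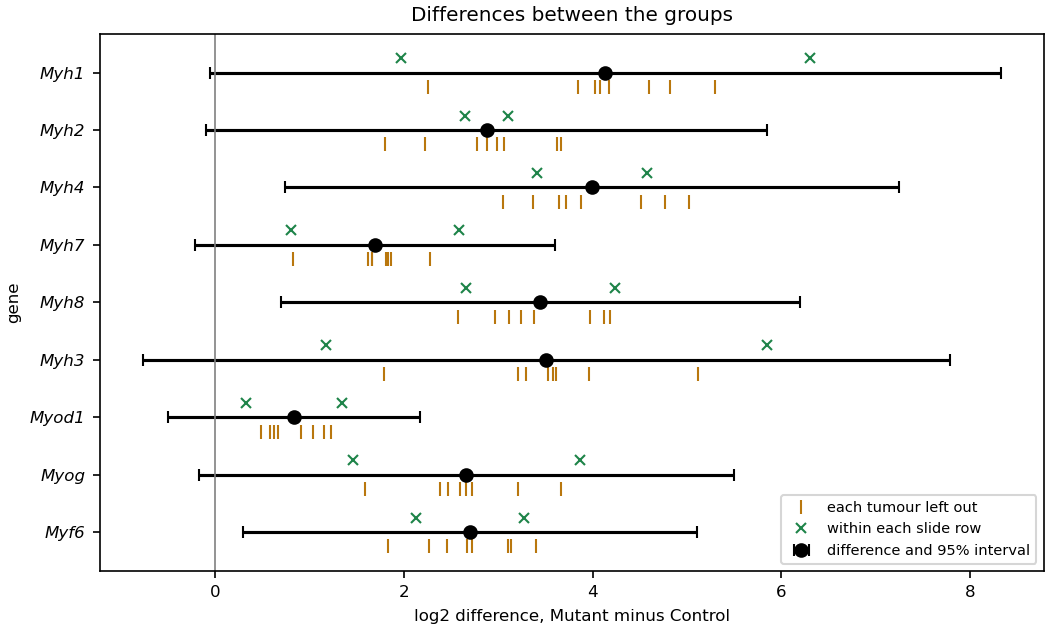
Black points and bars give the log2 difference, Mutant minus Control, with its 95% interval for the 9 genes tested; orange ticks leave out 1 tumour at a time, and green crosses are the differences within each slide row. The intervals of Myh4, Myh8 and Myf6 lie above 0, and every tick and cross lies above 0.

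Agreement between probes of a gene could be checked only for Myh4. Its second probe was bright enough to count on 3 Mutant arrays and 0 Control arrays, at -4.33, -3.09 and -4.31 in Mutant 1, 2 and 4, while Mutant 3 was dim. With Control signals raised to the lowest that counted as above background, the Mutant mean was 1.94-fold higher on this probe. That mean keeps the dim Mutant 3 signal at its own value, -7.34, which ranked 7 of 8, so the fold is not a strict lower bound. The second probes of Myh2, Myh3 and Myh8 stayed near background in all 8 tumours, so the values of these 3 genes rest on 1 probe each. In the RefSeq gene table (GRCm38.p6) Myh3, Myh2, Myh1, Myh4 and Myh8 follow one another in a cluster of closely related sequences. Probe sequences were not used here, so how far a probe of one chain also binds transcripts of another was not tested.

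Tumours kept much the same order from gene to gene. Mutant 2 held the highest level in 7 of 9 genes and Control 4 the lowest in 7 of 9, with Control 3 lowest in Myh4 and Myh7. Mutant 3 ranked 5 or 6 of 8 in every one of the 9 genes. Control 2 ran from rank 1 to rank 5: it had rank 1 for Myh3 and rank 3 for Myog and Myod1, but rank 5 for Myh4 and rank 4 for Myh1, Myh2, Myh7, Myh8 and Myf6.

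Each gene was centred on its mean over the 8 tumours, so that genes can be set side by side within a tumour. For Myh1, Myh3, Myog and Myf6 this mean includes a Control 4 signal not well above background. That low signal raises their centred levels in the other tumours relative to genes bright in Control 4. In Control 2, embryonic Myh3 stood at 3.06 and Myog at 1.69, and the adult chains were divided, with Myh1 at 1.42, Myh2 at 0.93, Myh4 at -0.44 and Myh7 at -0.42. Myh8 stood at 0.30 and Myf6 at -0.02. On this centring, the contrast between the embryonic and the adult fast chains in this tumour was widest for Myh4. Myog and Myh1 lay close together, a closeness that depends on the dim Control 4 signals of both. In Mutant 2 the order was the other way round, with Myh4 at 3.88, Myh7 at 3.45 and Myh3 at 1.56. The centred gap of Myh3 over Myh4 was -0.42, -2.32, 1.48 and 0.30 in Mutant 1 to 4, against -1.77, 3.50, 3.10 and -3.86 in Control 1 to 4. It averaged -0.24 ± 1.59 in Mutant and 0.24 ± 3.64 in Control tumours (SD, n = 4 each), and in Control 4 it rests on a Myh3 signal not well above background. Against the other adult fast chains the gap of Myh3 varied less. It averaged -0.31 ± 0.76 in Mutant and 0.31 ± 1.29 in Control tumours over Myh1, and 0.32 ± 1.46 in Mutant and -0.32 ± 1.82 in Control tumours over Myh2 (SD, n = 4 each). With 4 tumours in each group, centring makes the 2 group means of any gap equal and opposite, so only their difference is informative. Mutant minus Control, it was -0.63 over Myh1 and 0.63 over Myh2, in each case smaller in size than the SD of the Control tumours.

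**Figure D3:**
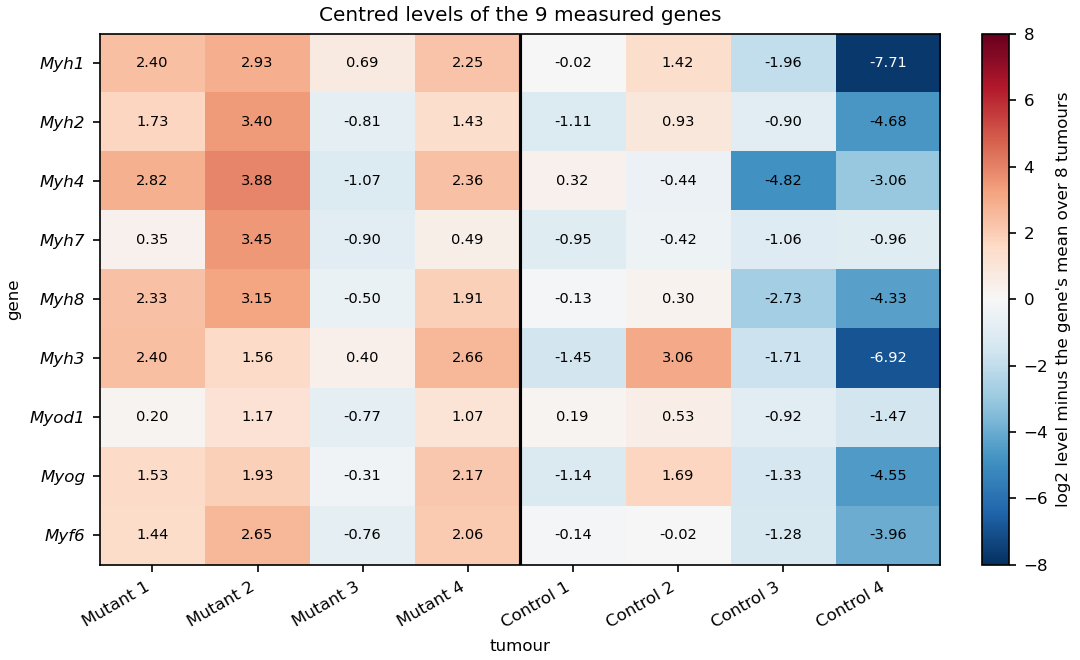
Each cell gives the log2 level of a gene (rows) in a tumour (columns, Mutant left of the black line and Control right of it) minus the gene's mean over the 8 tumours. Mutant 1, 2 and 4 are above the mean in all 9 genes, Control 3 and 4 are below it in all 9, and Control 2 is above it in Myh3, Myog, Myh1, Myh2, Myod1 and Myh8 and below it in Myh4, Myh7 and Myf6.

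Across the 8 tumours myogenin ran closely with the embryonic chain and with the adult chains Myh1 and Myh2. Myh3 and Myog had Pearson's r = 0.980 (exact permutation p = 0.000694) and Spearman's rho = 0.881 (exact permutation p = 0.00724), with adjusted p-values of 0.00278 and 0.0113 over the 36 pairs of genes. Without Control 3 and Control 4, the tumours farthest from the median of Myh3, r was 0.925, and with each group centred on its own mean it was 0.973. Myog had r = 0.957 with Myh1 and 0.954 with Myh2 (exact permutation p = 0.000248 and 0.00129, adjusted p = 0.00149 and 0.00357, n = 8). Myh3 had r = 0.955 with Myh1 and 0.898 with Myh2 (exact permutation p = 0.00171 and 0.00427, adjusted p = 0.0044 and 0.00808, n = 8). Spearman's rho was lower, at 0.762 and 0.738 (exact permutation p = 0.0368 and 0.0458, adjusted p = 0.0401 and 0.0471). Without Control 4, r was 0.839 with Myh1 and 0.723 with Myh2. It was 0.738 with Myh1 without Control 3 and Control 4, and 0.910 with Myh2 without Mutant 2 and Control 4. Myh8 ran closely with Myf6 (r = 0.972, rho = 0.976, exact permutation p = 9.92e-05 and 0.000397, adjusted p = 0.00134 and 0.00357, n = 8), with r = 0.930 without Mutant 2 and Control 4. Myh3 and Myh4 did not pass (r = 0.664, rho = 0.595, exact permutation p = 0.0663 and 0.132, adjusted p = 0.0723 and 0.132, n = 8), and r was 0.328 without Control 3 and Control 4. Of the 36 pairs, 32 passed by r and 35 by rho at an adjusted p under 0.05. The permutations mixed Mutant and Control tumours, so a difference between the groups shared by 2 genes adds to their correlation. With each group centred on its own mean, r ranged down to 0.160 for Myh3 and Myh7 and 0.273 for Myh1 and Myh7. How many pairs of other genes would pass was not examined. All pairs share the same 8 tumours and arrays, and whether one pair is tighter than another was not tested.

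**Figure D4:**
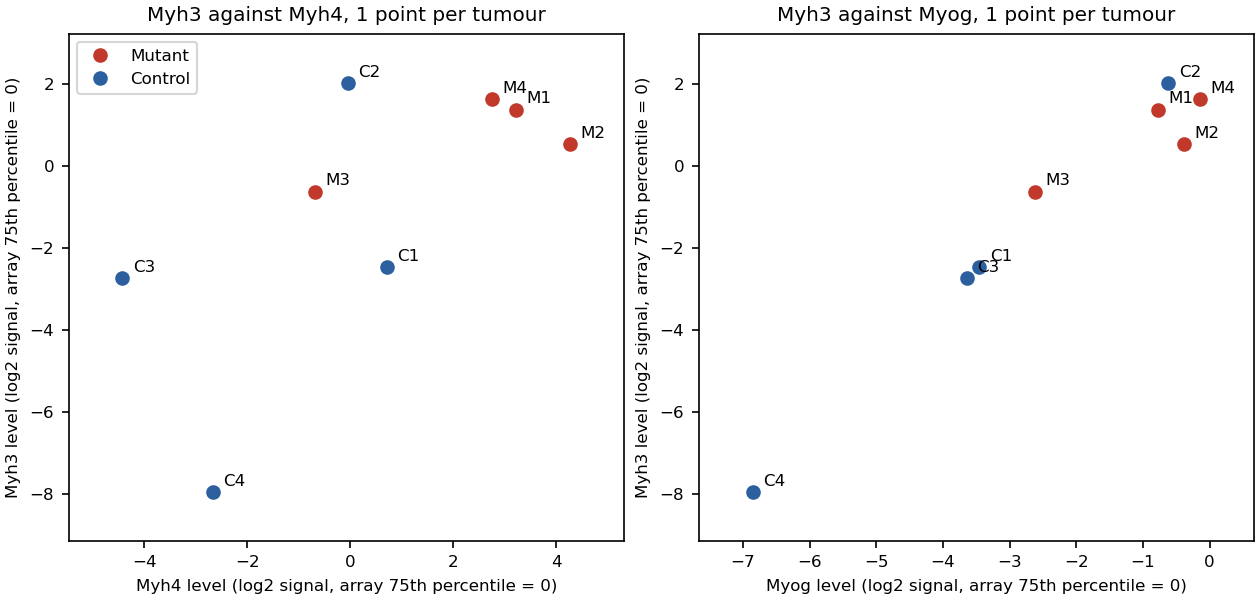
Levels of Myh3 (vertical axis, log2 signal with the array 75th percentile at 0) are plotted against Myh4 on the left and Myog on the right, with 1 point per tumour, M for Mutant and C for Control. Points lie near a line for Myog (r = 0.980), while against Myh4 (r = 0.664) Control 2 and Control 1 lie far apart in Myh3 at similar Myh4.

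Genes whose levels over the 8 tumours were most like each chain were sought among 14768 named genes, as a description by Pearson's r with no test. Nearest to Myog were Chrnd (r = 0.992) and Chrng (0.991), the delta and gamma subunits of the acetylcholine receptor, of which gamma belongs to the fetal form, then Myoz2 (0.990), the fusion peptide myomixer Mymx (0.989) and the M-band protein Myom3 (0.987). Nearest to Myh8 were the mitochondrial creatine kinase Ckmt2 (0.992), triadin Trdn (0.991), Nmrk2 (0.989), myotilin Myot (0.989) and fast troponin C Tnnc2 (0.989). Nearest to Myh4 were the fast myosin-binding protein Mybpc2 (0.976), Ckmt2 (0.960), Myadml2 (0.960), the ubiquitin ligase Trim63 (0.955) and Lfng (0.951), the last with a difference of only 0.18 between the groups. Nearest to Myh7 were the myosin light chain kinase Mylk2 (0.954), Cacna2d2 (0.949), muscle glycogen phosphorylase Pygm (0.945), Lars2 (0.938) and Folr1 (0.938). Spearman's rho with Myh7 was lower for these 5 genes, at 0.52 to 0.83, and Mutant 2 is the 1 tumour far above the others in Myh7. An r above 0.9 was reached by 96 genes for Myog, 80 for Myh8, 42 for Myh4 and 15 for Myh7.

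Genes of mature fibres lay on the same side as the myosins. All 12 fast fibre genes were higher in Mutant tumours, with a median of 2.64 and 10 at an unadjusted p under 0.05. For this and the later lists, 52.4% of all genes tested lay above 0. An unadjusted limma p under 0.05 was reached by 1.87% with Mutant higher and 2.91% in either direction. Here too the filter could be met through Mutant arrays alone, so the counts are a description. Without Control 4 the fast fibre median was 1.99. Mybpc2 differed by 4.17 with only 2 of 4 Control arrays well above background, skeletal actin Acta1 by 2.05, fast troponin T Tnnt3 by 2.54 and the calcium store protein Casq1 by 1.66. All 8 slow fibre genes tested were higher too, with a median of 2.17 and 4 at an unadjusted p under 0.05, among them slow troponin T Tnnt1 (2.06), the light chain Myl3 (2.75), Casq2 (2.28) and Myoz2 (2.83, with 2 of 4 Control arrays well above background). Without Control 4 the slow fibre median was 1.78. Adjusted over the whole array, 0 genes of these lists passed (limma adjusted p = 1 throughout).

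Genes of embryonic or regenerating muscle were higher in Mutant tumours in 11 of 11 cases, with a median of 2.04, of which 2 had an unadjusted p under 0.05. The receptor kinase Musk, which gathers acetylcholine receptors at the endplate, differed by 2.04, with 3 Mutant arrays and 1 Control array well above background. The embryonic light chain Myl4 read 3.42, 2.59, 1.51 and 3.62 in Mutant 1 to 4, against 0.70, 3.09, 0.47 and -0.11 in Control 1 to 4, so that Control 2 again stood with the high Mutant tumours. Chrnd differed by 3.02 and Mymx by 2.82, each with Control 4 not well above background (limma adjusted p = 1 for each gene of the list). Without Control 4 the median of the list was 1.11. On the mean of the list with each gene centred, Control 2 stood at 1.00, against 0.76 on the slow and 0.27 on the fast fibre list. Control 3 stood at -0.36 on the embryonic, -1.19 on the slow and -1.79 on the fast fibre list. Mutant 2 stood at 1.02 on the embryonic, 1.91 on the slow and 2.59 on the fast fibre list. Each list holds genes that were dim on some Control arrays, and those signals enter the centring.

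On the lists of satellite cell factors, cofactors and inhibitors the median difference was smaller than that of Myog or Myf6. The cofactor Vgll2 differed by more than either. Some of these genes were bright in both groups, such as Eya1 (mean 5.81 in Mutant and 6.05 in Control tumours) and Met (2.84 and 2.46). Which cells of the whole tumours gave their signal was not tested. Pax7, the defining factor of muscle stem cells, stayed near background in all 8 tumours. Of 7 satellite cell and upstream factors tested, 4 lay above 0 and 3 below, with a median of 0.02 and none at an unadjusted p under 0.05. Met differed by 0.38, Eya1 by -0.24, the laminin receptor Itga7 by -0.30 and Six4 by 0.28. Among 8 cofactors of the myogenic factors the median was 0.08 and 1 had an unadjusted p under 0.05, the muscle-restricted Vgll2 at 2.82 with 3 Mutant and 2 Control arrays well above background, while Mef2a differed by -0.15, Smarcd3 by 0.19 and the E protein Tcf12 by 0.14. Of 8 inhibitors 6 lay above 0, with a median of 0.29 and none at an unadjusted p under 0.05. Hdac5 differed by -0.27, Hdac4 by 0.37, Id2, which sequesters E proteins, by -0.17 and Mdfi by 0.43, and the inhibitory growth factor Mstn and the repressor Msc stayed near background throughout (limma adjusted p = 1 for each gene tested).

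Genes of the adult endplate and of denervated muscle divided, with 4 of 7 above 0, a median of 0.00 and 1 gene in each direction at an unadjusted p under 0.05. Trim63, an atrophy gene, differed by 3.55, with 3 Mutant and 2 Control arrays well above background. Gadd45a, a growth arrest gene that also responds to denervation, was at 0.89, 0.91, 0.86 and 1.05 in Mutant 1 to 4, against 1.34, 1.66, 1.61 and 1.31 in Control 1 to 4. The groups did not overlap for Gadd45a, which differed by -0.55 (standard error 0.12, limma adjusted p = 1). Chrnb1, the beta subunit of the acetylcholine receptor, differed by -0.40. Among 5 further myosin heavy chains tested, 3 lay above 0, with a median of 0.08. The extraocular chain Myh13 differed by 1.35, smooth muscle Myh11 by -0.40, and the non-muscle chains Myh9 by 0.10 and Myh14 by 0.08, while Myh15 stayed near background throughout (limma adjusted p = 1 for each gene tested).

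**Figure D5:**
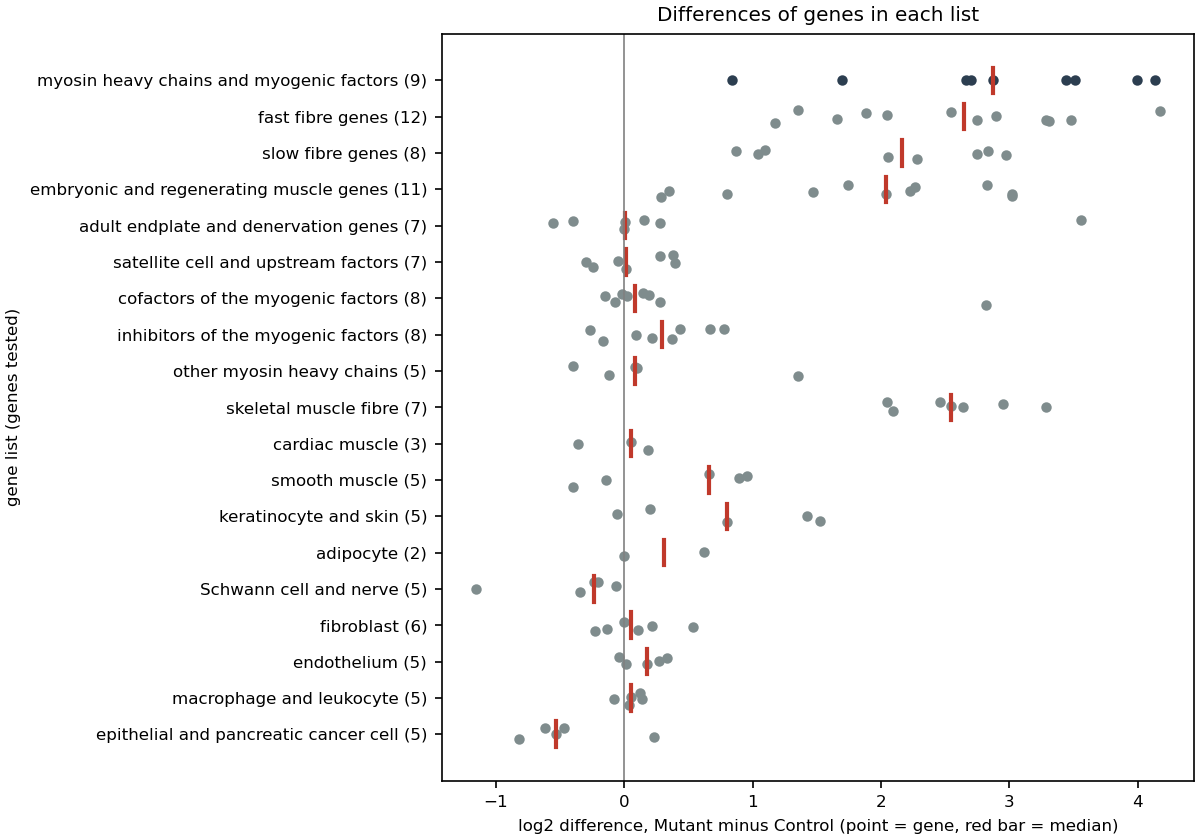
Each point is the log2 difference, Mutant minus Control, of 1 gene tested, grouped by list with the number of genes tested in brackets, and red bars are medians. The myosin and myogenic factor genes, the fast, slow and embryonic muscle lists and the fibre markers have medians of 2.04 to 2.88, and the median of every other list lies between -0.53 and 0.80.

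Markers of skeletal muscle fibres lay on the side of the myosins. All 7 fibre markers, of which Acta1, Tnnt3 and Ckm are also on the fast fibre list, were higher in Mutant tumours, and their summed signal, in units of the array's 75th percentile, was 6.35 to 37.2 in Mutant and 1.25 to 11.6 in Control tumours. Heart markers gave 2 of 3 above 0 and sums of 0.21 to 0.34 in Mutant and 0.18 to 0.36 in Control tumours, with Myl7 above background on 1 Mutant and 2 Control arrays. Of 5 smooth muscle markers 3 were above 0, with sums of 104.1 to 134.5 in Mutant and 36.5 to 165.7 in Control tumours.

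Skin markers did not follow the muscle genes. Of 5 keratinocyte markers tested 4 were above 0. Krt1, not tested, was well above background on no array and was highest in Mutant 3, at -5.24. Krt15, also not tested, was well above background only in Mutant 3, at -2.88. Lor was highest there too, at 0.17, whereas Krt14 was highest in Mutant 2 (-0.64) and Trp63 in Control 4 (3.33). The sums were 9.80 to 11.7 in Mutant and 8.74 to 11.3 in Control tumours. They are made up mostly of Trp63, which averaged 3.05 in Mutant and 3.10 in Control tumours, so they say little about the dimmer markers. The centred mean of the list was highest in Mutant 3, at 2.08, where the myosins were lowest among Mutant tumours, and without Mutant 3 the median difference was 0.02 in place of 0.80. Of 5 fat markers, Fabp4 and Lep were well above background on all 8 arrays, and the sums were 1.61 to 6.17 in Mutant and 0.55 to 3.97 in Control tumours. Mutant 2, highest in 7 of 9 muscle genes, also held the highest sum and the highest Adipoq (-1.41), Cidec (0.06) and Plin1 (-4.06). Adipoq and Cidec were each well above background on 2 Mutant arrays and 1 Control array, and Control 2 held the highest level of both among Control tumours. Schwann cell markers were lower in 5 of 5, with sums of 2.24 to 3.39 in Mutant and 1.97 to 8.90 in Control tumours, and Control 4 was the highest.

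Epithelial markers were lower in Mutant tumours in 4 of 5, 2 of them (Krt8 and Krt18) at an unadjusted p under 0.05, the opposite side from the muscle genes, with sums of 175.6 to 258.6 in Mutant and 202.7 to 363.7 in Control tumours. Krt8 differed by -0.53 and Krt18 by -0.47, and their highest levels, 6.94 and 7.82, were in Control 4, where most myosins were lowest. Fibroblast markers were above 0 in 3 of 6, with sums of 168.8 to 675.0 in Mutant and 82.0 to 1182.6 in Control tumours. Endothelial sums were 3.42 to 5.37 in Mutant and 2.71 to 5.39 in Control tumours, with 4 of 5 markers above 0, and macrophage and leukocyte sums were 56.3 to 122.4 in Mutant and 70.5 to 130.1 in Control tumours, with 4 of 5 above 0. The part of these other cells in the myosin differences was not tested.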

How the data were processed

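RNA of 8 whole tumours was labelled with Cy3 from 0.5 ug and hybridised to Agilent arrays, per the labels' protocols. The scanned intensity was extracted by Feature Extraction 10.7.3.1 per the file headers; version 9.1 stands in the submitters' processing notes. The processed signal is background-subtracted and detrended within an array. Flags and positions deposited beside it have no unit (other). The authors' deposited value table holds the same linear intensity: 99.5% of probes per array equalled the processed signal within 0.01%, column medians were 52.8 to 61.8, and no centring or direction is involved.

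Outlier spots (66 to 117 per array) and control spots were left out and spots of a probe averaged. Log2 signal was centred on each array's 75th percentile (575.9 to 740.7). Probes named through RefSeq accessions (GRCm38.p6 gene table; 58.3% of 56605 probes matched 1 gene) entered if at least 4 of 8 arrays read them well above background, with the probe of highest mean per gene, leaving 16068 genes. The array design names another build, so no coordinates are given. Limma 3.58.1 (R 4.3.3) was fitted with group as the only term, with Benjamini-Hochberg adjustment over all genes, and was tested on simulated data. Python 3.11.15 and pandas 2.3.3 handled tables. Arrays give no count depth, and 4 tumours per group limit the precision. Tumours were treated as independent, 1 per host, from the design text.

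The 10 genes, the lists and the tests were chosen with earlier results of these data known. From each list up to 4 genes of smallest p are named (1 gene of the adult endplate list is not reported here), and for Myh4, Myh7, Myh8 and Myog the 5 genes of highest Pearson's r; other list genes and markers named for being undetected or for a single tumour (Epcam, Pax7, Myh7b, Myh6 and the like) were named after their values were seen. A summed signal adds the linear levels of the brightest probe of each marker. For a probe dim on all arrays of a group, the value of that group on each array is the higher of its own signal and the lowest signal well above background. Alternatives covered background correction, normalization, the filter, the probe rule, the value table, the spread model, blocks and leaving out each tumour. Normexp ran on median spot signals, since the columns used here hold medians.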

Additional observations from a re-analysis of the deposited data

How the results depend on the processing

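All 9 genes tested stayed higher in Mutant tumours under each of 24 other settings in which they could be fitted. These gave 212 values, all above 0, of which 0 passed at an adjusted p under 0.05. Not all of them are separate checks. The filters, the probe rules, the variance trend and the blocks left each difference at its main value, and the deposited value table holds the same signal. With probes required to be above background on all 8 arrays, Myh1, Myh3, Myog and Myf6 dropped out and 5 of 5 remaining genes were higher. The median difference, 2.88, was 2.08 with normexp background correction, 2.47 with array weights, 2.13 and 3.87 within the slide rows, and 1.79 (without Control 4) to 3.67 (without Control 2) with a tumour left out. Normexp took Myf6 to 1.06, Myog to 1.43, Myh3 to 2.08 and Myod1 to 0.36, and array weights took Myh1 to 2.77. Within slide row 1 and row 2, Myh1 was 1.97 and 6.31, Myh7 2.58 and 0.81, Myod1 0.33 and 1.35, and Myog 1.46 and 3.87. Over all genes no setting called any gene, and 467 had an unadjusted p under 0.05, against 1280 with array weights, 1132 with every probe tested by itself (36824 probes), 1912 within slide row 1, and 195 to 972 with a tumour left out (lowest without Mutant 1, 305 without Control 1, 257 without Mutant 4, highest without Control 2). Of the 9 genes, 3 were at an unadjusted p under 0.05, against 6 with array weights, 5 with normexp, 6 with the slide row as a block, and 0 (without Control 3 or without Mutant 2) to 7 (without Control 2) with a tumour left out, 1 without Mutant 1 and 6 without Mutant 3. The cause of these shifts was not tested. Setting dim signals to the floor was chosen after the data were seen. The replicate block gave 0 calls, 371 genes and 6 of the 9 at an unadjusted p under 0.05. With it the standard error of Myh4 was 0.49 in place of 1.41, and that of Myh3 was 1.82 in place of 1.85. Same-numbered tumours had deviations correlated at -0.31 to 0.08 over genes. These correlations show no pairing by number but cannot exclude one. No group of 4 levels held a tumour far enough from the others to be singled out by Dixon's test. Signals near background in Control 4 limit the differences of Myh1, Myh3, Myog and Myf6.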
